A study of Mus musculus with 4 samples.

Results

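Alb, Apoa2, Cyp2e1 and H2-Q10 are genes best known from hepatocytes, the main cell type of the liver, and their RNA was measured in cells sorted from lung tumours of mice. These 4 of the 17746 genes in the table were chosen by their values in the comparison described here, because each stood far higher in 1 GFP-positive library than anywhere else. Their levels and fitted changes are therefore given as a description, with no p-value or call. The sorted cells came from Rb1fl/fl; Trp53fl/fl mice, a model of small cell lung cancer, that also carried the GFP-LC3-RFP-LC3ΔG knock-in probe, and all groups share these alleles. Cells split this probe into GFP-LC3, a substrate of autophagy, and an RFP fragment that autophagy leaves alone. Sorted cells were DAPI-negative (alive), carried EpCAM, a surface protein of epithelia, and were RFP-positive. By their GFP they formed a GFP-negative group and a GFP-positive group of 2 libraries each. Titles and design text disagree on which group had high autophagic flux, so the groups are called by GFP alone. Log2 changes are levels in GFP-negative libraries relative to GFP-positive libraries. The sources used here do not state how Rb1 and Trp53 were deleted, how old the mice were or whether each library came from its own animal. The p-values therefore measure only the spread between these libraries, which may be technical.

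Hepatocytes make most proteins of the blood plasma and carry out much of the body's lipid transport and chemical detoxification. Alb encodes serum albumin, the main plasma protein, and Apoa2 encodes apolipoprotein A-II, a protein of high-density lipoprotein. Cyp2e1 encodes a cytochrome P450 that oxidises ethanol and other small molecules, and H2-Q10 encodes a class Ib relative of the MHC class I molecules that mouse liver secretes into the serum. Cyp2e1 is also known at lower levels outside the liver, whereas Alb and Apoa2 are commonly used as hepatocyte markers. The table holds 48 of 160 genes in the 5 hepatocyte lists used here, which are plasma proteins, apolipoproteins, drug metabolism, amino acid and sugar metabolism, and transcription factors. The table lists no gene with counts in fewer than 2 libraries, so a hepatocyte gene found in only 1 library could not appear in it. Apoa1, Fabp1, Serpina1a, Fga, Mup3 and Hnf4a were looked up and were not among its symbols, and no level is drawn from that.

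GFP-positive replicate 1, the library in which the 4 genes were high, also stood apart in how many genes it held. It had counts for 6063 genes (34.2% of the table), against 17617 and 15710 genes in GFP-negative replicates 1 and 2 and 16379 in GFP-positive replicate 2. The libraries held 73997175 and 69676412 counts in the GFP-negative group and 51994432 and 67536465 counts in the GFP-positive group, for replicates 1 and 2. Levels below are CPM, which are counts scaled to a common TMM-adjusted library size, in that order of replicates. Comparisons between genes use FPKM, which also divides by gene length. Epcam, the gene of the sort marker, had 255 and 88.8 CPM in GFP-negative and 94.0 and 65.8 CPM in GFP-positive libraries. Chga, a neuroendocrine granule protein, had 494 and 94.1 CPM in GFP-negative and 0 and 156 CPM in GFP-positive libraries. Calca, a neuroendocrine peptide gene, had 2742 and 489 CPM in GFP-negative and 3071 and 349 CPM in GFP-positive libraries, and the leukocyte gene Ptprc (CD45) had 21.99 and 18.4 CPM in GFP-negative and 0 and 79.8 CPM in GFP-positive libraries. The library with the hepatocyte genes thus held Epcam and Calca. Nothing is drawn from its 0 counts of Chga and Ptprc, since it had counts for only 34.2% of all genes.

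The 4 genes lie on different chromosomes, each on the plus strand, and no annotated gene overlaps any of them in GENCODE M21, which uses mm10 (GRCm38). Alb (ENSMUSG00000029368.10) lies on chromosome 5 from 90460897 to 90476602, Apoa2 (ENSMUSG00000005681.12) on chromosome 1 from 171225054 to 171226379, Cyp2e1 (ENSMUSG00000025479.9) on chromosome 7 from 140763739 to 140774987 and H2-Q10 (ENSMUSG00000067235.14) on chromosome 17 from 35470089 to 35474563. Their promoters are shown because the genes were high in the same library. Each is given as the 250 bases before the RefSeq start on GRCm38.p6, and Apoa2, which has 2 RefSeq starts, as the window of the start nearest to the GENCODE gene. Capitals mark GTTAAT, a motif of liver promoters, the CCAAT box and the TATA box TATAAA, on either strand, and no match overlaps another.
Alb, chr5:90460620-90460869: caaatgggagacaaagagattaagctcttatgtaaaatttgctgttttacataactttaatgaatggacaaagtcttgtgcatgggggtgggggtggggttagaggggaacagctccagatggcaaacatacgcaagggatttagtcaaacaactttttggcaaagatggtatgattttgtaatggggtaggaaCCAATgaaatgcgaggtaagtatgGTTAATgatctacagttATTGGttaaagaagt
Apoa2, chr1:171224804-171225053: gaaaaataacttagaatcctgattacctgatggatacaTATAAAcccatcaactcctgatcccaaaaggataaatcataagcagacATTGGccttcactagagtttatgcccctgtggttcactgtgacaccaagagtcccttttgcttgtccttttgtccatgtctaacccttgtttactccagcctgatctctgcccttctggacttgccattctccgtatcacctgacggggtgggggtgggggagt
Cyp2e1, chr7:140763569-140763818: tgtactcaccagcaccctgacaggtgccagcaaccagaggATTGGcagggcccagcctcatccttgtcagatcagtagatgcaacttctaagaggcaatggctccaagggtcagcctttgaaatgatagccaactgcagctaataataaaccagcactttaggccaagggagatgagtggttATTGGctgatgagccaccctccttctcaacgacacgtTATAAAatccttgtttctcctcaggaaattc
H2-Q10, chr17:35469839-35470088: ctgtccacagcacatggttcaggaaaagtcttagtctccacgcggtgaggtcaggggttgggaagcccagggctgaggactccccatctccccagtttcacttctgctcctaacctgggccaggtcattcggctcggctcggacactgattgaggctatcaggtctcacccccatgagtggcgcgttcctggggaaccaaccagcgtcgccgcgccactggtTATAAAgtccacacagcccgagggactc

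Of the 4 windows, that of Alb held GTTAAT, starting 32 bases before the RefSeq start, and 6.43% of 32851 RefSeq promoter windows of the same length hold it on either strand. A CCAAT box stood in the windows of Alb, Apoa2 and Cyp2e1, and in 33.9% of all windows. TATAAA stood in the windows of Cyp2e1, Apoa2 and H2-Q10, and in 12.4% of all windows. It started 31 and 28 bases before the start of Cyp2e1 and H2-Q10, and 212 bases before that of Apoa2. These are matches of letters, and nothing is drawn from them about binding.

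Apoa2 was the most abundant of the 4. It had 40 and 32 counts in GFP-negative libraries and 680315 and 197 counts in GFP-positive libraries. As levels these are 0.352 and 0.480 CPM in GFP-negative and 18124 and 3.09 CPM in GFP-positive libraries. The groups did not overlap, and GFP-positive replicate 1 exceeded the next highest library, GFP-positive replicate 2, by 5867-fold. In such bulk libraries, fewer cells of a type and less RNA per cell cannot be told apart. In FPKM, Apoa2 ranked first of all genes in that library, at 21807 FPKM, and took 1.31% of its counts. Its fitted log2 change was -14.41 ± 1.14 (SE, n = 2 per group), and -2.89 ± 2.97 without GFP-positive replicate 1. SEs here and below use a spread estimated with help from all genes. The value of 1.14 is thus not the spread of the 2 GFP-positive libraries, which lie 5867-fold apart.

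Alb was the only one of the 4 whose groups overlapped. It had 16 and 4 counts in GFP-negative libraries and 190604 and 0 counts in GFP-positive libraries. These equal 0.141 (95% exact Poisson interval 0.0805 to 0.229) and 0.060 CPM (0.0164 to 0.154) in GFP-negative libraries and 5078 and 0 CPM in GFP-positive libraries. The 0 counts in GFP-positive replicate 2 allow up to 0.0470 CPM, taking 3 counts as the limit. Such limits and intervals cover counting error only, since amplified reads without molecular identifiers are not independent molecules. The fitted log2 change was -14.59 ± 1.84, and it rests on GFP-positive replicate 1. Without that library, 16 and 4 counts in GFP-negative libraries stood against 0, too few to give a change.

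Cyp2e1 had 0 and 0 counts in GFP-negative libraries and 73910 and 52 counts in GFP-positive libraries, or 0 and 0 CPM against 1969 and 0.815 CPM (0.609 to 1.07 for replicate 2). It was the only one of the 4 without counts in either GFP-negative library, where 3 counts would equal 0.0264 and 0.0450 CPM. With that limit averaged over the group, the GFP-negative mean was at least 27566-fold lower. Nearly all of the difference came from replicate 1, which exceeded replicate 2 of the same group by 2415-fold. Without replicate 1, 0 and 0 counts in GFP-negative libraries stood against 52.

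H2-Q10 was the least abundant of the 4 in the library where all were high. It had 118 and 12 counts in GFP-negative libraries and 44327 and 223 counts in GFP-positive libraries. These equal 1.04 and 0.180 CPM in GFP-negative and 1181 and 3.497 CPM in GFP-positive libraries. The groups did not overlap, and GFP-positive replicate 1 exceeded the next library by 338-fold, the smallest such excess of the 4. The fitted log2 change was -9.92 ± 2.62, and -2.52 ± 2.96 without GFP-positive replicate 1.

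**Figure D1:**
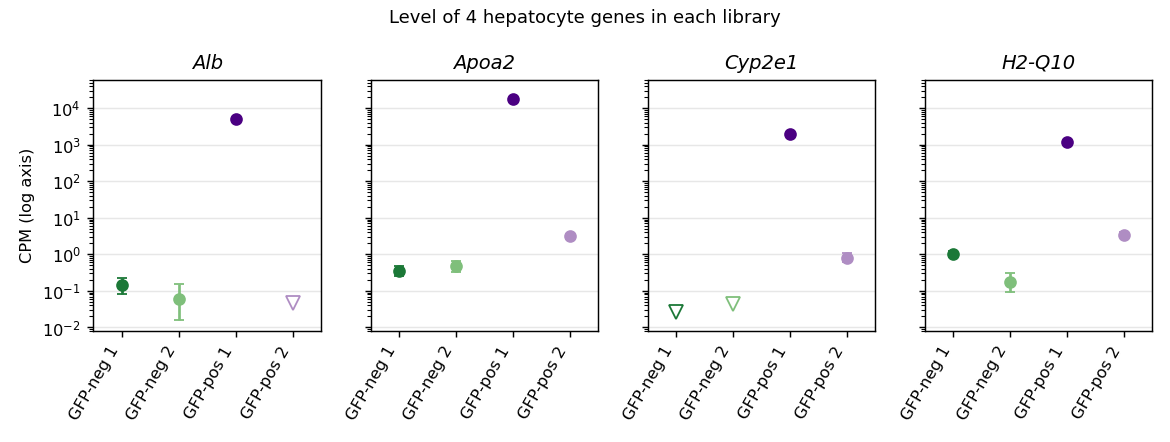
CPM of Alb, Apoa2, Cyp2e1 and H2-Q10 (log axis) in each library, with 95% exact Poisson intervals that cover counting error only. An open triangle marks a library with 0 counts, drawn at the level of 3 counts. In each panel GFP-positive replicate 1 lies far above the other 3 libraries, which are all below 4 CPM.

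All 4 genes passed the filter on low counts, which left 16301 genes. The groups did not overlap, with GFP-negative below, for 3 of the 4 and for 6.63% of all genes tested. Nothing is read from this count, because the same values chose the genes. All 4 are among the 6 genes with the greatest excess of GFP-positive replicate 1 over the highest other library, measured as a log2 ratio of CPM + 0.5.

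Set side by side per length, the genes were not in the same order in every library. In GFP-positive replicate 1 Apoa2 stood at 21807 FPKM, Alb at 1401 FPKM, Cyp2e1 at 589.5 FPKM and H2-Q10 at 175 FPKM. In GFP-positive replicate 2 the order was Apoa2 at 4.64 FPKM, H2-Q10 at 0.647 FPKM, Cyp2e1 at 0.297 FPKM and Alb listed at 0. In GFP-negative replicate 1 it was Apoa2 at 0.880 FPKM, H2-Q10 at 0.319 FPKM, Alb at 0.0790 FPKM and Cyp2e1 listed at 0. In GFP-negative replicate 2 it was Apoa2 at 0.740 FPKM, H2-Q10 at 0.0339 FPKM and Alb at 0.0200 FPKM, with Cyp2e1 listed at 0. Apoa2 was thus first in all 4 libraries, and H2-Q10 was last in GFP-positive replicate 1 and second in the other 3.

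The low counts in the other 3 libraries were also not a constant fraction of those in GFP-positive replicate 1. Expressed as ppm of the same gene's count in that library, Apoa2 had 58.8 and 47.0 ppm in GFP-negative replicates 1 and 2 and 289.6 ppm (95% exact Poisson interval 251 to 333) in GFP-positive replicate 2. On the same scale Alb had 83.9 and 21.0 ppm in the GFP-negative libraries and 0 in GFP-positive replicate 2, which allows up to 15.7. Cyp2e1 had 0 in both GFP-negative libraries, allowing up to 40.6, and 704 (525 to 923) in GFP-positive replicate 2. H2-Q10 had 2662 (2203 to 3188) and 271 (139.9 to 473) in GFP-negative libraries and 5031 (4392 to 5736) in GFP-positive replicate 2. Within GFP-positive replicate 2 the 4 fractions had counting intervals that did not overlap, and the H2-Q10 fraction was the highest in all 3 libraries.

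H2-Q10 belongs to a family of near relatives, so reads could be assigned to the wrong member. The sources used here do not state how shared reads were counted. Of the 100-base windows of its longest protein-coding transcript, 2.06% also occur in a transcript of another gene, mostly H2-Q1, and of the 50-base windows 8.03%. For H2-Q7, a Q region gene, the same shares were 16.4% and 34.9%. For Alb and Apoa2 no window was shared at either length, and for Cyp2e1 26 of 1734 windows of 100 bases and 4.76% of those of 50 bases were. Of the 13 other measured genes of the class I list, 6 were highest in GFP-positive replicate 1. So were 14.1% of all genes, and 40.6% of those with counts in all 4 libraries. H2-Q1 was one of the 6, with 1.67 and 0.523 FPKM in GFP-negative libraries and 10.1 and 9.02 FPKM in GFP-positive libraries. H2-Q6 had 9.85 and 26.4 FPKM in GFP-negative libraries and 0 and 59.5 FPKM in GFP-positive libraries, and H2-Q7 had 2.52 and 12.7 FPKM in GFP-negative and 0 and 29.8 FPKM in GFP-positive libraries. Both were listed at 0 in the library where H2-Q10 was at 175 FPKM. That library had counts for 34.2% of all genes, so nothing is drawn from these zeros. H2-K1, a classical antigen-presenting molecule, had 57.3 and 123 FPKM in GFP-negative and 178 and 379 FPKM in GFP-positive libraries. H2-Q10 thus stood close to H2-K1 in GFP-positive replicate 1 and far below it in the other 3 libraries. H2-D1, the other classical gene, and B2m, the light chain of class I molecules, were the most abundant of the list, at 466 and 352 FPKM and at 507 and 1151 FPKM in GFP-negative libraries, against 1888 and 1615 FPKM and 4882 and 5047 FPKM in GFP-positive libraries. Of the 13 genes other than H2-Q10, 0 passed edgeR's test and 2 had an unadjusted p under 0.05.

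**Figure D2:**
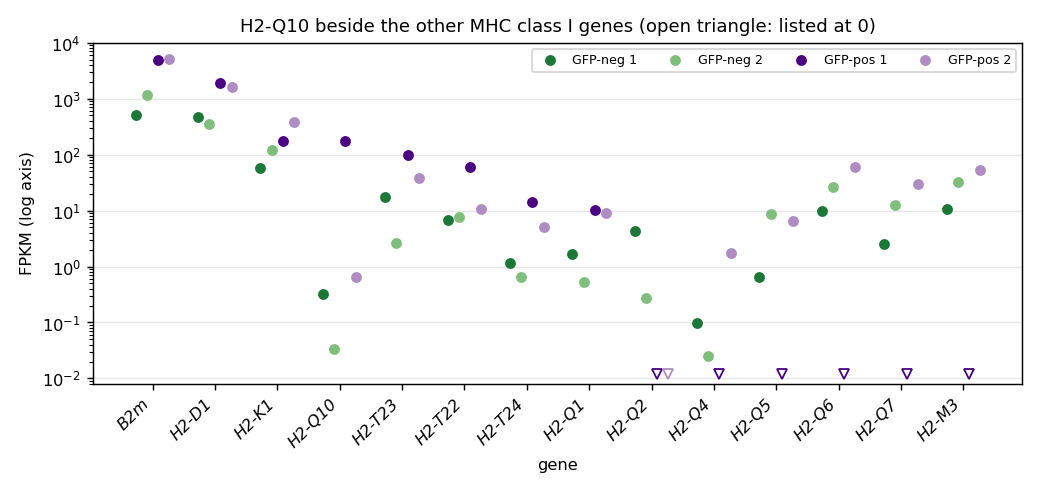
FPKM (log axis) of 14 MHC class I genes of the list in each library, ordered by GFP-positive replicate 1. Open triangles mark values listed at 0. H2-Q10 is at 175 FPKM in GFP-positive replicate 1 and under 1 FPKM elsewhere. H2-Q6 and H2-Q7 are listed at 0 in that library, which has counts for 34.2% of all genes.

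The rest of the hepatocyte lists showed how far the pattern of the 4 genes extended. Of 45 other list genes in the table, 25 (55.6%) were highest in GFP-positive replicate 1, where 14.1% of all genes were. Among genes with counts in all 4 libraries the shares were 17 of 24 list genes (70.8%) and 40.6% of all genes. In GFP-positive replicate 1, 32 of the 45 had counts and 13 had 0 counts, where 34.2% of all genes had counts. Of the 45, 24 stood at 100 CPM or more there, as did 2318 of all 17746 genes. Summed over these 45 genes, levels were 998 and 13648 CPM in GFP-negative and 40747 and 27144 CPM in GFP-positive libraries. Apoe, which macrophages also make, was the most abundant of them in 3 of the 4 libraries. Without it the sums were 887 and 2308 CPM in GFP-negative and 22600 and 3059 CPM in GFP-positive libraries, a setting chosen after its values were seen.

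Of 12 measured plasma protein genes other than Alb, 11 were highest in GFP-positive replicate 1. Of the 11 that could be tested, 0 passed edgeR's test between the groups and 3 had an unadjusted p under 0.05. Trf, the iron carrier transferrin, had 117 and 525 CPM in GFP-negative and 4601 and 1464 CPM in GFP-positive libraries. Ttr, a carrier of thyroid hormone and retinol-binding protein, had 23.005 and 318 CPM in GFP-negative and 2079 and 155 CPM in GFP-positive libraries, and Rbp4, the retinol-binding protein itself, 59.9 and 55.1 CPM in GFP-negative and 2095 and 14.3 CPM in GFP-positive libraries. All 3 stood above 10 CPM in every library. Hp, the haemoglobin-binding haptoglobin, had 34.3 and 91.7 CPM in GFP-negative and 898 and 68.0 CPM in GFP-positive libraries. It is also in the list of airway club cell genes used below. C3, the central complement protein, had 1.55 and 14.7 CPM in GFP-negative and 762 and 14.4 CPM in GFP-positive libraries. Serpina3k, a protease inhibitor, was closest to the all-or-none pattern of Alb, with 6 and 0 counts in GFP-negative and 6679 and 4 counts in GFP-positive libraries.

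Of the 8 apolipoprotein list genes other than Apoa2, 4 were highest in GFP-positive replicate 1 and 2 were called lower in GFP-negative libraries, as were 0.092% of all genes tested. The 2 calls were Apoc1 and Apoe, neighbours on chromosome 7 that encode lipoprotein proteins. Apoc1 had 0.458 and 17.4 CPM in GFP-negative and 3489 and 90.9 CPM in GFP-positive libraries (log2 change -7.65 ± 1.62, n = 2 per group, edgeR adjusted p = 0.00312). Apoe had 112 and 11340.0 CPM in GFP-negative and 18147 and 24085 CPM in GFP-positive libraries, so it was not confined to the library of the 4 genes (log2 change -1.88 ± 0.46, edgeR adjusted p = 0.0434). For both genes the groups did not overlap, and neither call was made without GFP-positive replicate 1, under upper quartile scaling, with DESeq2's Wald test or among genes with counts in all 4 libraries. Under upper quartile scaling and among genes with counts in all 4 libraries, 0 genes of any kind were called. DESeq2's Wald test called 11 of 16301 genes lower. The call of Apoe was also lost with the filter of 20 counts in 2 libraries, and that of Apoc1 with the replicate number as a block. Apoc4, of the same gene cluster, had 0.123 and 22.2 CPM in GFP-negative and 1513 and 67.8 CPM in GFP-positive libraries and did not pass. Apof and Apoh, both plasma proteins of the liver, came nearer to Apoa2. Apof had 6.29 and 1.07 CPM in GFP-negative and 885 and 0 CPM in GFP-positive libraries, and Apoh had 0 and 0.691 CPM in GFP-negative and 335 and 0 CPM in GFP-positive libraries. Apoc2 went the other way within the group, with 2.11 and 135 CPM in GFP-negative and 0.0533 and 88.2 CPM in GFP-positive libraries. Mttp, which loads lipid onto lipoproteins, had 0 counts in GFP-positive replicate 1 and 4.89 to 18.7 CPM elsewhere.

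In the drug metabolism list 5 of 6 genes other than Cyp2e1 were highest in GFP-positive replicate 1, and 0 passed edgeR's test (1 at an unadjusted p under 0.05). Adh1, an alcohol dehydrogenase, had 1.55 and 41.8 CPM in GFP-negative and 1599 and 8.34 CPM in GFP-positive libraries. Cyp2c29, a P450 of mouse liver, had 0 and 0.555 CPM in GFP-negative and 163 and 0 CPM in GFP-positive libraries. Cyp7b1, which hydroxylates oxysterols, had 5.34 and 3.45 CPM in GFP-negative and 169 and 0 CPM in GFP-positive libraries. The exception was Cyp27a1, an enzyme of bile acid synthesis that macrophages also make, with 2.75 and 1.74 CPM in GFP-negative and 0 and 36.9 CPM in GFP-positive libraries.

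Of 10 measured genes of amino acid, urea and sugar metabolism, 3 were highest in GFP-positive replicate 1 and 0 were called by edgeR (2 at an unadjusted p under 0.05). The 3 were Arg1, Asl and Gnmt. Arg1, the arginase of the urea cycle, which macrophages can also make, had 12.3 and 108 CPM in GFP-negative and 1434 and 158 CPM in GFP-positive libraries. Gnmt, which methylates glycine in the liver, had 3.47 and 3.23 CPM in GFP-negative and 137 and 0 CPM in GFP-positive libraries. Glul, glutamine synthetase, had 106 and 704 CPM in GFP-negative and 438 and 554 CPM in GFP-positive libraries, so its groups overlapped.

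Of 9 measured hepatocyte transcription factors, 2 were highest in GFP-positive replicate 1, where 14.1% of all genes were. In that library 6 of the 9 had 0 counts. It had counts for 34.2% of all genes, so the share at 0 is close to that of the table. Of the 9, 0 passed edgeR's test (1 at an unadjusted p under 0.05). Creb3l3, a liver-enriched factor bound to the endoplasmic reticulum, had 0.0440 and 7.19 CPM in GFP-negative and 135 and 5.80 CPM in GFP-positive libraries. Cebpa had 7.30 and 0.300 CPM in GFP-negative and 27.0 and 9.79 CPM in GFP-positive libraries. Foxa1 and Foxa2, pioneer factors of liver and also of lung epithelium, had 0 counts in GFP-positive replicate 1. Foxa1 had 219 and 8.29 CPM in the GFP-negative libraries and 11.8 CPM in GFP-positive replicate 2, and Foxa2 had 45.6 and 13.5 CPM in the GFP-negative libraries and 40.8 CPM in GFP-positive replicate 2. Nr0b2, Nr1i3 and Onecut1 likewise had 0 counts in that library.

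Over the 5 lists without the 4 genes, edgeR's test thus called 2 of 44 genes lower (4.55%) and 0 higher. Of all genes tested, 0.092% were called lower. Both list calls, Apoc1 and Apoe, lie in the same gene cluster, and Apoe was highest in GFP-positive replicate 2. The fitted log2 change was below 0 for 30 of the 44, with a median of -2.05, where the median of all 16301 genes was 0.91. Without GFP-positive replicate 1 the median of the list was -0.12 with 0 calls, against 0.29 for all genes. The groups did not overlap, with GFP-negative below, for 11 of the 44 (25.0%), against 6.63% of all genes tested.

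**Figure D3:**
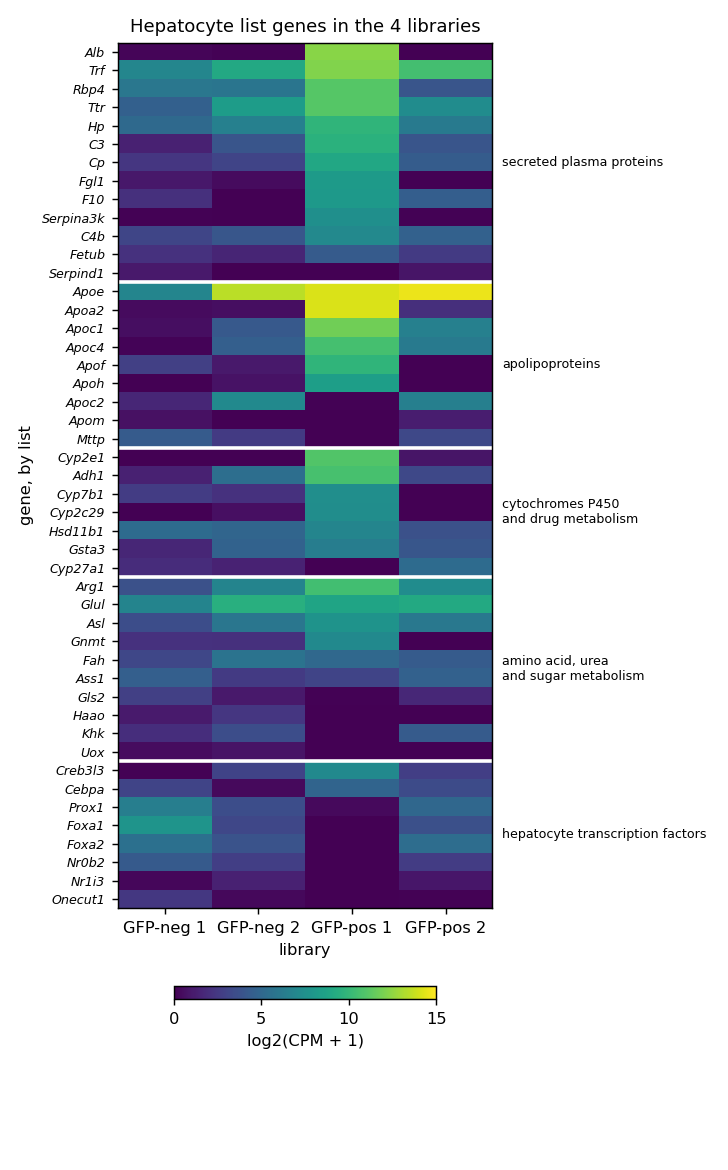
Levels as log2(CPM + 1) of 47 of the 48 measured genes of the 5 hepatocyte lists, Alb, Apoa2 and Cyp2e1 included, in the 4 libraries, ordered within each list by GFP-positive replicate 1. GFP-positive replicate 1 is the brightest library for 12 of 13 plasma protein genes, 5 of 9 apolipoprotein genes and 6 of 7 drug metabolism genes. Foxa1 and Foxa2 have 0 counts there, in a library with counts for 34.2% of all genes.

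Markers of other liver cells and of other tissues with some of these genes were read in the same way, and their part in the result was not tested. Of 5 measured Kupffer cell markers 1 had counts in GFP-positive replicate 1, which was C6, a complement gene that hepatocytes also make, and the summed levels of the list were 19.8 and 111 CPM in GFP-negative and 247 and 248 CPM in GFP-positive libraries. The Kupffer and sinusoidal markers Vsig4, Timd4, Stab1 and Stab2 had 0 counts in that library. It had counts for 34.2% of all genes, so nothing is drawn from zeros in lists this short. Of 5 sinusoidal endothelial markers 1 had counts there, Fcgr2b, which immune cells share (sums 32.3 and 276 CPM in GFP-negative and 579 and 662 CPM in GFP-positive libraries). Of 4 stellate cell markers 1 had counts there, Ecm1 (sums 35.0 and 555 CPM in GFP-negative and 1372 and 902 CPM in GFP-positive libraries). Of 4 cholangiocyte markers 3 had counts there, Krt7, Krt19 and Spp1, with sums of 595 and 2926 CPM in GFP-negative and 7529 and 2164 CPM in GFP-positive libraries. Other epithelia share Krt7 and Krt19, and macrophages share Spp1. Of 5 fetal liver genes 1 had counts there, Rbp4, and Afp, the fetal counterpart of albumin next to Alb, was at 0 (sums 207 and 891 CPM in GFP-negative and 2095 and 286 CPM in GFP-positive libraries). Vil1, with 4 counts, was the 1 of 2 enterocyte markers with counts there, and the sums of that list were 46.4 and 2680.2 CPM in GFP-negative and 0.107 and 1517 CPM in GFP-positive libraries. No kidney tubule or adipocyte marker of the lists was among the symbols of the table. Of 9 airway club cell genes 8 had counts in that library, with sums of 459 and 4616 CPM in GFP-negative and 5130.0 and 3816 CPM in GFP-positive libraries. The club cell list shares Hp, at 898 CPM in GFP-positive replicate 1, and Gsta3 with the hepatocyte lists. Of 7 alveolar type 2 genes 2 had counts there, with sums of 116 and 2497 CPM in GFP-negative and 147 and 276 CPM in GFP-positive libraries.

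Among all other genes, the patterns most like those of the 4 were found by distance of log2(CPM + 1) over the 4 libraries, among 12619 genes that reached 5 CPM in some library. Cideb, which encodes a lipid droplet protein abundant in liver, was nearest to Alb (distance 2.69) and to Cyp2e1 (1.68), with 0 and 0.661 CPM in GFP-negative and 834 and 0 CPM in GFP-positive libraries. Alb and Cyp2e1 were nearer to each other (1.63) than to any other gene. Car3, a carbonic anhydrase of muscle, fat and liver, was nearest to Apoa2 (4.89), with 0 and 8.11 CPM in GFP-negative and 1051 and 3.17 CPM in GFP-positive libraries. C1ra, a complement protease, was nearest to H2-Q10 (1.495), with 1.73 and 0 CPM in GFP-negative and 449 and 4.36 CPM in GFP-positive libraries. Gpr141, a receptor not known as a liver gene, was among the 5 nearest to all 4, with 1.63 and 0 CPM in GFP-negative and 586 and 1.07 CPM in GFP-positive libraries. Others among the 5 nearest were Apof, Apoh, Nt5dc1, Etfbkmt and Slc9a4.

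Genes at 1000 CPM or more in 1 library and at 10 CPM or less in each of the other 3 were rare, and most were the 4 described here. GFP-positive replicate 1 had 5 such genes among 214 at 1000 CPM or more, namely Alb, Apoa2, Cyp2e1, H2-Q10 and Car3. The first 4 were chosen for values of this kind, so nothing is read from their place here. GFP-negative replicate 1 had 1 of 42, the MYC-family gene Mycl, and GFP-negative replicate 2 had 0 of 135 and GFP-positive replicate 2 had 0 of 119. With limits of 100 and 1 CPM the numbers were 2 and 1 in GFP-negative libraries and 11 and 0 in GFP-positive libraries. The 11 were Alb, Cyp2e1, Apoh, Fgl1, Serpina3k and Cyp2c29 of the hepatocyte lists, and Cideb, Aqp9, Gm6981, Kazald1 and Lif.

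**Figure D4:**
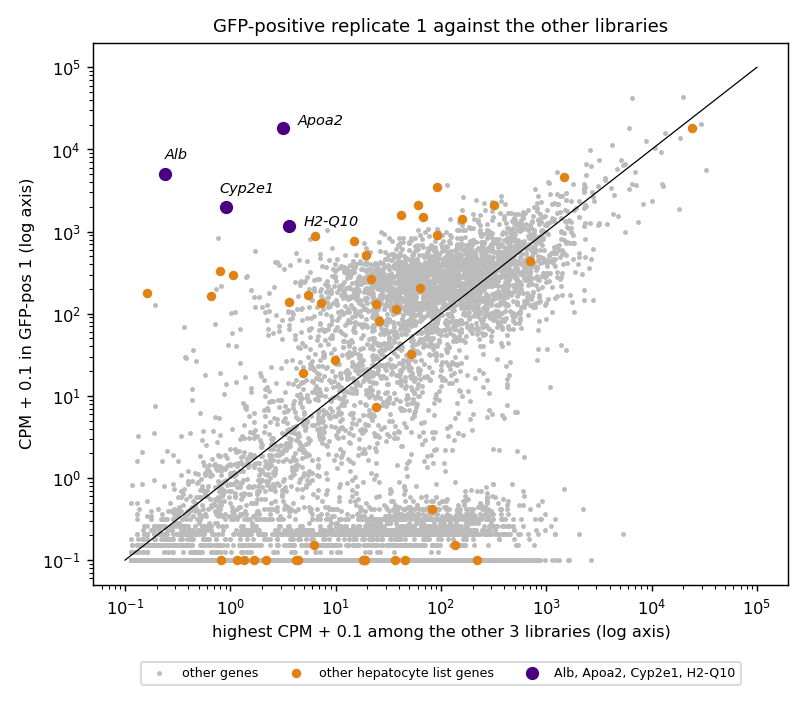
CPM + 0.1 of each gene in GFP-positive replicate 1 (vertical, log axis) against its highest CPM + 0.1 among the other 3 libraries (horizontal, log axis), with the line of equal values. Alb, Apoa2, Cyp2e1 and H2-Q10 lie farthest to the upper left among genes above 1000 CPM in GFP-positive replicate 1, and other hepatocyte list genes are spread above the line and along the bottom, where counts are 0.

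Genes next to the 4 on their chromosomes were also read. Of the 3 nearest measured genes on each side, 16 of 24 had 0 counts in GFP-positive replicate 1, a library with counts for 34.2% of all genes, so this share is close to that of the table. Of the 24, 6 were highest in it, against 14.1% of all genes. Beside Alb 5 of 6 had 0 counts there, among them Afp, 14135 bases away, with 0.335 and 0 CPM in GFP-negative and 0 and 0.486 CPM in GFP-positive libraries. Beside Apoa2, Nr1i3, a nuclear receptor of the liver, had 0 counts there, and Fcer1g, an Fc receptor chain of myeloid cells 3193 bases away, had 52.3 and 2076 CPM in GFP-negative and 1545 and 4804 CPM in GFP-positive libraries. Urah, an enzyme of urate breakdown in the liver 60031 bases from Cyp2e1, had 3.43 and 27.5 CPM in GFP-negative and 252 and 5.90 CPM in GFP-positive libraries, the neighbour closest to the pattern of the 4. Beside H2-Q10 the cell cycle factor Tcf19 was highest in GFP-positive replicate 1, at 246 CPM, with 83.1 and 48.4 CPM in GFP-negative libraries and 34.5 CPM in GFP-positive replicate 2.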

How the data were processed

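RNA was sequenced from 4 libraries of sorted cells. Per the labels' protocols, cDNA was primed with oligo(dT), extended by template switching (SMARTer), amplified by PCR and sequenced in pairs on a NovaSeq instrument, without strand information. The deposited table covers 17746 symbols, and its read counts per gene and library are whole numbers, not normalized. FPKM values, which the authors computed, stand beside them in the deposited table. The tools named in the submitters' notes on processing are cutadapt 1.9, HISAT2 2.2.1, StringTie 2.1.6, DESeq2 and edgeR, and the build is mm10. Which of them counted reads is not stated there.

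Counts were fitted across all genes in R 4.3.3 with edgeR 4.0.16 (filterByExpr with a minimum count of 10, TMM, glmQLFTest, Benjamini-Hochberg threshold 0.05), leaving 16301 genes. TMM factors were 1.53 and 0.956 for GFP-negative and 0.722 and 0.944 for GFP-positive libraries. Standard errors are the log2 change over the square root of F, which rests on a spread moderated across genes. The common biological coefficient of variation was 1.92. The fit was tested on simulated data with a smaller spread than these libraries have. Alternatives used limma 3.58.1 and DESeq2 1.42.0. Promoters came from RefSeq on GRCm38.p6, and all 4 genes matched. Positions and transcripts came from GENCODE M21, in which 17315 symbols (97.6%) matched 1 gene.

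Earlier results of these data were known when the 4 genes, the gene lists and the rule on which genes to name were chosen. The rule took up to 6 genes per list by FPKM, all called genes, the 5 nearest patterns and 3 neighbours on each side. From it the text gives values for selected genes and counts for the rest, and Urah, Fcer1g, Aqp9 and the other list genes beyond its first 6 were picked for the text after their values were seen. Values of some single genes that the rule covers are not reported here.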

Additional observations from a re-analysis of the deposited data

How the results depend on the processing

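The number of other hepatocyte list genes called was 2 in the fit as reported, with 12 at an unadjusted p under 0.05. It was 0 under upper quartile scaling and 0 with DESeq2's Wald test (6 and 13 at an unadjusted p under 0.05). Of all 16301 genes tested, these settings called 0 and 42. It was 1 (Apoc1) with a filter of 20 counts in 2 libraries. Among genes with counts in all 4 libraries in edgeR it was 0 (5 at an unadjusted p under 0.05). That setting, added after seeing the data, called 0 of all its 5625 genes. Leaving out each library in turn gave 0 (without GFP-positive replicate 1, with 5 at an unadjusted p under 0.05) to 22 (without GFP-positive replicate 2, where 7601 of 16804 genes were called), and 4 without GFP-negative replicate 2. With 1 library left in a group its spread was taken from the other group. The cause of these changes was not tested. DESeq2 size factors, library totals, no filter and limma on FPKM with pseudocounts of 0.1 and 1 each called 2 list genes. The median log2 change of all genes was 0.91 as reported, 1.12 with DESeq2 size factors, 0.43 with upper quartile scaling and 1.32 with library totals. The list median was -2.05 as reported, -8.41 with upper quartile scaling, -0.67 with limma at a pseudocount of 0.1, -1.11 at 1, -0.84 with the replicate block and -1.21 with the crossed block. It was -0.12 without GFP-positive replicate 1 and -3.57 without GFP-negative replicate 2.

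With the replicate number as a block the count was 1 (Apoe), and 2 with the numbers crossed. Replicate 1 deviations of the 2 groups had a Pearson correlation of -0.07 over genes. With 2 pairs this does not settle whether equal numbers share an animal or batch, so no pairing was assumed. Leaving out 1 library gave log2 changes of Alb between -15.58 and 6.06. The value of 6.06 came without GFP-positive replicate 1, where 16 and 4 counts in GFP-negative libraries stood against 0. The changes of the other 3 genes stayed below 0 under every alternative that could be fitted, but their sizes moved widely. Apoa2 ran from -21.33 (upper quartile scaling) to -2.89 (without GFP-positive replicate 1), and H2-Q10 from -16.96 to -2.52 in the same settings. Cyp2e1 ran from -30 (DESeq2's Wald test) to -4.79 (limma at a pseudocount of 1). Alb was at -21.59 with upper quartile scaling and at -5.16 with limma at a pseudocount of 1. It could not be fitted under the filter of 20 counts or among genes with counts in all 4 libraries, nor Cyp2e1 under the second. Genes high in 1 library numbered 5 in GFP-positive replicate 1 as reported, 11 with limits of 100 and 1 CPM and 3 under library totals, where H2-Q10 and Car3 dropped out. The lower limits gave 2 and 1 in the GFP-negative libraries. The 4 genes' levels in GFP-positive replicate 1 are 1 measurement each, with no replicate at that level. Under library totals they were 13084 CPM for Apoa2, 3666 CPM for Alb, 1421.5 CPM for Cyp2e1 and 852.5 CPM for H2-Q10. The sums over the other hepatocyte list genes were then 1532 and 13048 CPM in GFP-negative and 29417 and 25630 CPM in GFP-positive libraries.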

Other observations

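The 20 genes with the greatest excess of GFP-positive replicate 1 over the highest other library included the 4 genes and 5 other hepatocyte list genes, namely Serpina3k, Apoh, Fgl1, Cyp2c29 and Apof. Others among the 20 are also known from liver, a selection made after their values were seen. Aqp9, a glycerol channel of hepatocytes, had 220 CPM in GFP-positive replicate 1 and at most 0.721 CPM in any other library. Cideb, described above, ranked 4. Lif, a cytokine that is not a typical hepatocyte gene, had 129 CPM in GFP-positive replicate 1 and at most 0.0941 CPM elsewhere. Fxyd1, a regulator of the sodium pump known from heart and muscle, had 278 CPM and at most 1.32 CPM elsewhere. Further down, at rank 22, stood Pecam1, an adhesion molecule of endothelial cells and platelets, with 396 CPM in GFP-positive replicate 1 and at most 2.77 CPM in any other library.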
